A study of Homo sapiens with 11 samples.

Results

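The 56 ribosome biogenesis genes described here act in the nucleolus, and they were chosen by symbol. They were grouped by step as 5 genes of RNA polymerase I (Pol I) transcription, 11 genes of small nucleolar ribonucleoproteins (snoRNPs) and nucleolar scaffolds, 19 genes of small-subunit assembly and 21 genes of large-subunit assembly. They are 56 of the 60676 genes in the count table, and each of the 56 passed the low-count filter that left 19981 genes for testing. The cells were RWPE1, a prostate epithelial line that is immortalized but does not form tumors, grown in serum-free keratinocyte medium with pituitary extract and EGF. RNA came from 3 libraries in normoxia at 20% oxygen (0 h), from 3 libraries each after 6 h and 12 h in hypoxia at 1% oxygen, and from 2 libraries after 24 h. Another 24 h replicate was not analysed here. The labels give 10 mM HEPES buffer for the hypoxic groups and do not state HEPES for normoxia. If normoxic medium held none, oxygen and buffer cannot be told apart. Nothing in the labels says that replicates are separate cultures, so p-values measure the spread between these libraries, which may be technical. RWPE1 is 1 cell line, and in bulk RNA fewer cells of a type and less RNA per cell cannot be told apart.

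Ribosome biogenesis begins when Pol I copies the ribosomal DNA repeats into a long precursor RNA. Box C/D and box H/ACA snoRNPs then methylate and pseudouridylate that RNA, while assembly factors fold it, cut it and add ribosomal proteins to build a small and a large subunit. It is among the most costly programs of a growing cell, and many of its genes are known targets of the MYC transcription factor.

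The libraries held 27496009 to 49488345 counts. Levels are CPM, the counts of a gene scaled to a library of fixed size, with TMM factors applied. The lowest factor, 0.539, was that of replicate 2 at 24 h, and the others were 0.851 to 1.32. A gene is called where the edgeR quasi-likelihood test gave a Benjamini-Hochberg adjusted p under 0.05 across the tested genes. Basal epithelial markers were present, with 5 of 5 tested and a summed level of 7760 to 10600 CPM at 0 h. That sum was 11100 to 16700 CPM at 6 h, 17200 to 19900 CPM at 12 h and 15400 to 20600 CPM at 24 h, and its part in the results was not tested. KRT5 and KRT14, keratins of basal cells, carry most of that sum, with 0 h means of 7270 and 1200 CPM, whereas TP63, the basal lineage factor, ran from 67.0 to 259 CPM with a 0 h mean of 241 CPM. General epithelial markers, with 4 of 4 tested, summed to 608 to 671 CPM at 0 h, 1150 to 1280 CPM at 6 h, 1310 to 1340 CPM at 12 h and 1340 to 2080 CPM at 24 h. Among them KRT8 and KRT18, with 0 h means of 143 and 102 CPM, reached 1140 and 657 CPM. EPCAM ran from 67.9 to 149 CPM with a 0 h mean of 68.5 CPM, whereas CDH1 ran from 138 to 437 CPM with a 0 h mean of 324 CPM. Secretory luminal markers summed to at most 5.23 CPM, leukocyte markers to at most 0.506 CPM and endothelial markers to at most 0.47 CPM, so those of leukocytes and endothelium were near 0 in each group. Fibroblast markers summed to 47.1 to 60.5 CPM at 0 h and to 28.0 to 46.2 CPM in hypoxia, with COL1A1 the only marker of 5 to pass the filter. The 7 hypoxia response genes examined summed to 1850 to 2170 CPM at 0 h and to 7290 to 13300 CPM in the hypoxic libraries.

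Most of the ribosome biogenesis genes were higher in hypoxia at each time. At 6 h 47 of 56 were called higher and 0 lower, with a median log2 fold change of 1.03 against -0.00 over all tested genes. Over all tested genes 25.1% were called higher and 27.7% lower at 6 h. At 12 h 49 were called higher and 1 lower, with a median of 0.96 against -0.03, where 24.2% of all tested genes were higher and 27.1% lower. At 24 h 44 were called higher and 4 lower, with a median of 1.13 against -0.06, where 29.9% of all tested genes were higher and 31.3% lower. The 3 comparisons share the 0 h libraries. These values are relative to TMM scaling. With library size alone the median of all genes was -0.32, -0.50 and -0.97 at 6, 12 and 24 h, and the members' medians were 0.71, 0.49 and 0.19. The calls were then 35 higher and 3 lower at 6 h, 28 and 2 at 12 h, and 23 and 10 at 24 h. Over all tested genes that scaling called 13.6% higher and 35.7% lower at 6 h, 10.6% and 42.3% at 12 h, and 11.1% and 56.6% at 24 h. With limma-voom sample quality weights 36 of the 56 genes were called higher and 0 lower at 24 h, beside 3719 and 2450 of all 19981 tested genes.

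**Figure D1:**
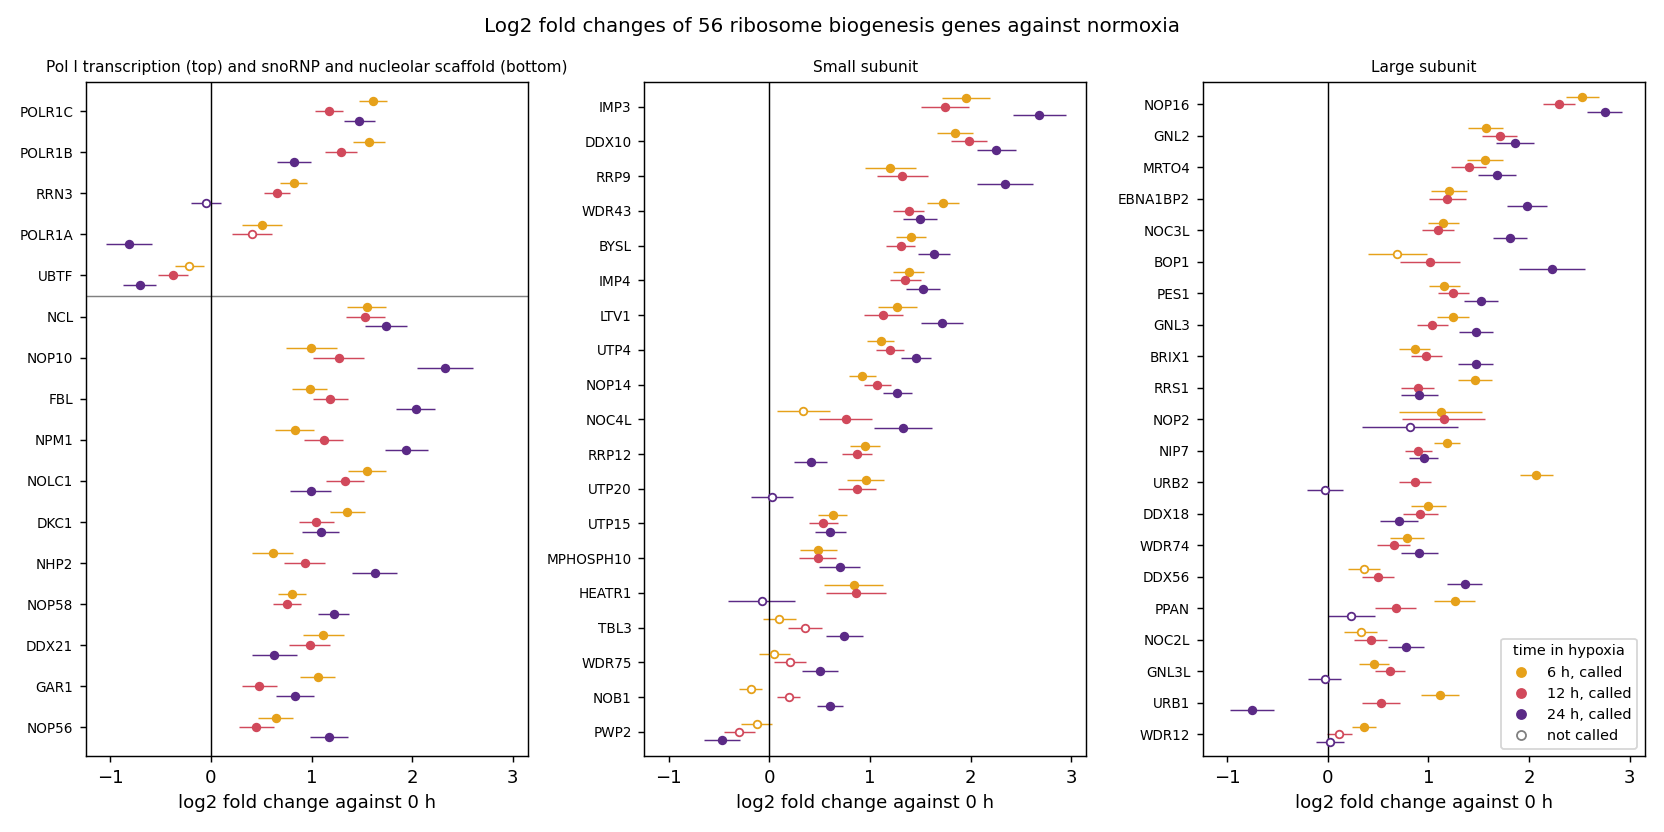
Log2 fold change against 0 h of each of the 56 genes at 6, 12 and 24 h, with 1 standard error as the bar, by step of the pathway. Filled points were called by edgeR at an adjusted p under 0.05 and open points were not. Most points lie to the right of 0, and the 24 h points of POLR1A, UBTF, PWP2 and URB1 lie to the left as called genes.

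At 6 h 50 of the 56 genes had every library above every 0 h library, beside 33.6% of all tested genes. At 12 h this held for 52 genes, beside 34.8%, and at 24 h for 44 genes, beside 33.7%. For 41 genes the 8 hypoxic libraries all lay above the 3 normoxic libraries, beside 20.5% of all tested genes. Per library, the median of the 56 genes over their mean log2 CPM at 0 h was 1.15, 1.09 and 0.79 at 6 h. It was 0.94, 0.94 and 0.93 at 12 h, and 1.05 and 1.20 at 24 h. Replicate 3 at 6 h was the lowest hypoxic library on this measure, and the 3 libraries at 12 h differed least.

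**Figure D2:**
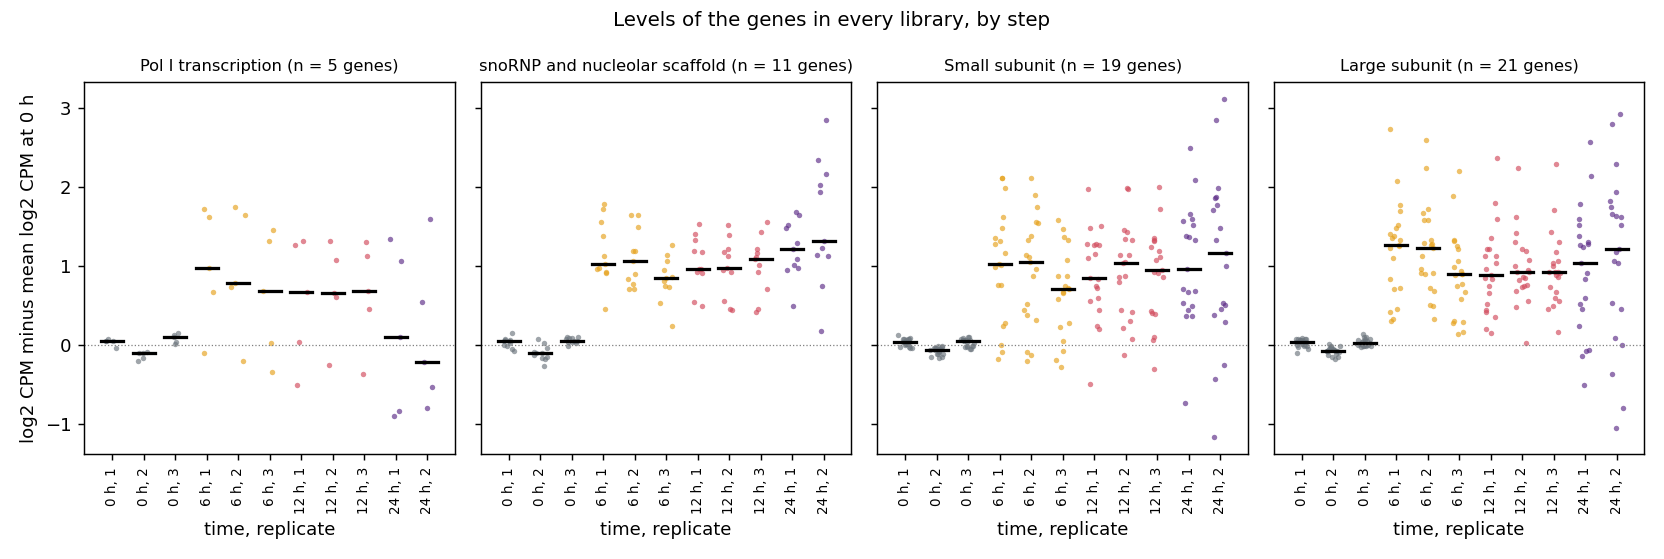
Each point is 1 gene in 1 library, as log2 CPM minus the gene's mean log2 CPM at 0 h, in 1 panel per step, and the bar is the median of the step. The bars of the snoRNP, small-subunit and large-subunit genes lie above 0 in each of the 8 hypoxic libraries, and the bar of the 5 Pol I genes is at 0.10 and -0.21 in the 24 h libraries.

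The genes fell into few time patterns. Of the 56, 37 were called higher at all 3 times, 7 at 6 and 12 h but not at 24 h, 4 at 12 and 24 h only, 3 at 24 h only and 1, WDR12, at 6 h only. The remaining 4 were called lower at 1 or more times. No gene went without a call at every time. Over all tested genes 14.8% were called higher at all 3 times, 4.0% at 6 and 12 h but not at 24 h, 4.03% at 12 and 24 h only, 9.3% at 24 h only and 3.33% at 6 h only, and 40.8% were called lower at 1 or more times. The patterns rest on the call at each time and not on a test between times.

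Since most of the genes were higher together, sites in their promoters are shown. RefSeq promoter windows on GRCh38.p14, from 250 bases before to 50 bases after the start site, were found for 48 of the 56 genes. The palindrome CACGTG, an E-box that MYC with its partner MAX and related factors are known to bind, was in a window of 20 of the 48 genes (41.7%). It was in 12.4% of the 11150 tested protein-coding genes with a window and in 8.77% of all 27305 genes in the promoter table. Among genes called higher at all 3 times 17 of 31 held it (54.8%), against 3 of 17 of the other genes (17.6%). The share among all tested genes called higher at all 3 times was not taken. Whether the motif bears on the rise was not tested. Of the 23 matches, 20 began within 50 bases of the start site. A match is a run of letters and not evidence of binding. The sites below are 1 for each gene picked by the naming rule given with the processing whose window held the motif. Each is the match nearest the start site, printed on the strand of the gene with the E-box in capitals. Sites of other genes, such as NOC3L and NOP2, are not printed.

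NOP10, box H/ACA snoRNP, chr15:34343130-34343159, minus strand: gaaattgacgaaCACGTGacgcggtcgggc
FBL, box C/D snoRNP, chr19:39846356-39846385, minus strand: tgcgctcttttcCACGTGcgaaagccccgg
GAR1, box H/ACA snoRNP, chr4:109815781-109815810, plus strand: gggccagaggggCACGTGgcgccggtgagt
DDX21, nucleolar helicase, chr10:68956604-68956633, plus strand: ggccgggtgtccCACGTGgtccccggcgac
WDR43, small subunit, chr2:28894658-28894687, plus strand: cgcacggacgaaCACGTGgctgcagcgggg
RRP9, small subunit, chr3:51941892-51941921, minus strand: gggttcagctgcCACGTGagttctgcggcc
GNL2, large subunit, chr1:37595917-37595946, minus strand: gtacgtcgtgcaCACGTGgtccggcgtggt
MRTO4, large subunit, chr1:19251807-19251836, plus strand: cgtcttccgccgCACGTGgattcagcgcga
EBNA1BP2, large subunit, chr1:43172241-43172260, minus strand: gcgattcggtggCACGTGga
UTP20, small subunit, chr12:101280083-101280112, plus strand: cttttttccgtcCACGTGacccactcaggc
PWP2, small subunit, chr21:44107388-44107417, plus strand: tgagctgcggcaCACGTGcgacggccgtga

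Counting the start site as base 1, the E-box began at base 4 in GNL2 and WDR43, at base 7 in FBL, 15 in MRTO4, 32 in GAR1 and 43 in EBNA1BP2. It began 5 bases before the start in RRP9, 11 in NOP10 and 31 in DDX21. These genes were called higher at all 3 times. UTP20, with the motif 10 bases before the start, was called higher at 6 and 12 h only, and PWP2, with the motif at base 2, was called lower at 24 h. NOP10 and EBNA1BP2 each held another match farther from the start. The letters ACGTG or GCGTG on either strand are the core that hypoxia-inducible factors are known to bind. They were in windows of 93.8% of the 48 genes and 69.2% of tested protein-coding genes. Among members called higher at all 3 times 96.8% held them, and among the other members 88.2%. ACGTG lies within CACGTG, so the counts of these motifs overlap.

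The 5 Pol I genes did not move as a block. At 6 h 4 were called higher and 0 lower, at 12 h 3 and 1, and at 24 h 2 and 2. Of all tested genes 25.1%, 24.2% and 29.9% were called higher at 6, 12 and 24 h, and 27.7%, 27.1% and 31.3% lower. Another 15 genes of Pol I transcription, from the list of other pathway genes, gave 9 higher and 1 lower at each time. Their median log2 fold changes were 0.65, 0.58 and 0.98. POLR1C, a subunit shared with RNA polymerase III, was at 12.9, 12.3 and 14.4 CPM in the 0 h libraries. It was at 40.7, 44.1 and 36.3 CPM at 6 h, 33.0, 27.8 and 28.9 CPM at 12 h, and 33.5 and 40.0 CPM at 24 h. Every hypoxic library was above every normoxic one, and the log2 fold changes were 1.61 ± 0.14 (SE), 1.18 ± 0.14 and 1.48 ± 0.15, with edgeR adjusted p of 3.53e-06, 3.93e-05 and 7.99e-06. POLR1B, the second-largest Pol I subunit, was at 41.4, 36.8 and 39.8 CPM at 0 h. It was at 129.4, 123.0 and 97.8 CPM at 6 h, 94.3, 98.1 and 97.0 CPM at 12 h, and 82.1 and 57.4 CPM at 24 h. Its hypoxic libraries also lay above all normoxic ones, and its log2 fold changes were 1.57, 1.29 and 0.83, although the 24 h value was -0.03 with library size alone.

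RRN3, the initiation factor that brings Pol I to the ribosomal promoter, was higher at 6 h and 12 h but not at 24 h. It was at 45.9, 41.9 and 45.6 CPM at 0 h and at 87.6, 77.0 and 71.5 CPM at 6 h. It was at 71.1, 67.7 and 71.6 CPM at 12 h and at 47.7 and 38.4 CPM at 24 h, where the libraries lay on either side of the 0 h range. Its log2 fold changes were 0.82 (adjusted p = 0.000232), 0.66 (0.00133) and -0.05 (0.797) by edgeR, and the fall from 12 h to 24 h was called at -0.70. With library size alone neither early call held, at adjusted p of 0.0629 and 0.474. RRN3 has 3 named pseudogenes with 4165 counts in the table, beside 23504 for the gene, so its reads could be split among copies.

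POLR1A, the largest catalytic subunit of Pol I, was called higher at 6 h and lower at 24 h. It was at 64.4, 55.8 and 66.8 CPM at 0 h and at 98.9, 103.8 and 63.2 CPM at 6 h. It was at 64.1, 98.4 and 85.8 CPM at 12 h and at 35.1 and 35.9 CPM at 24 h. The 6 h and 12 h libraries overlapped the 0 h libraries and both 24 h libraries lay below all others. The log2 fold change was 0.51 ± 0.20 (SE) at 6 h with an edgeR adjusted p of 0.047. That 6 h call was lost when any 1 of the 3 normoxic libraries was left out, and without 6 h replicate 1 or 2 or 12 h replicate 2 or 3, and it did not hold with limma-voom. At 24 h the value was -0.81 ± 0.23 (adjusted p = 0.00808), and an offset for transcript length, added after the data were seen, moved it to -0.05 (adjusted p = 0.853). UBTF, the factor that coats active ribosomal DNA, was at 79.7, 67.1 and 85.5 CPM at 0 h and at 72.2, 66.9 and 61.2 CPM at 6 h. It was at 54.4, 64.8 and 60.1 CPM at 12 h and at 41.3 and 53.5 CPM at 24 h, with the 12 h and 24 h libraries all below the 0 h range. Its log2 fold changes were -0.21, -0.37 ± 0.15 (SE, adjusted p = 0.0482) and -0.71 ± 0.17 (adjusted p = 0.00288) by edgeR. The 12 h call was lost without 0 h replicate 1 or 3, any 1 of the 6 h libraries, or 12 h replicate 1 or 3, and with the length offset. The 24 h value was -0.20 (adjusted p = 0.341) with the length offset.

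**Figure D3:**
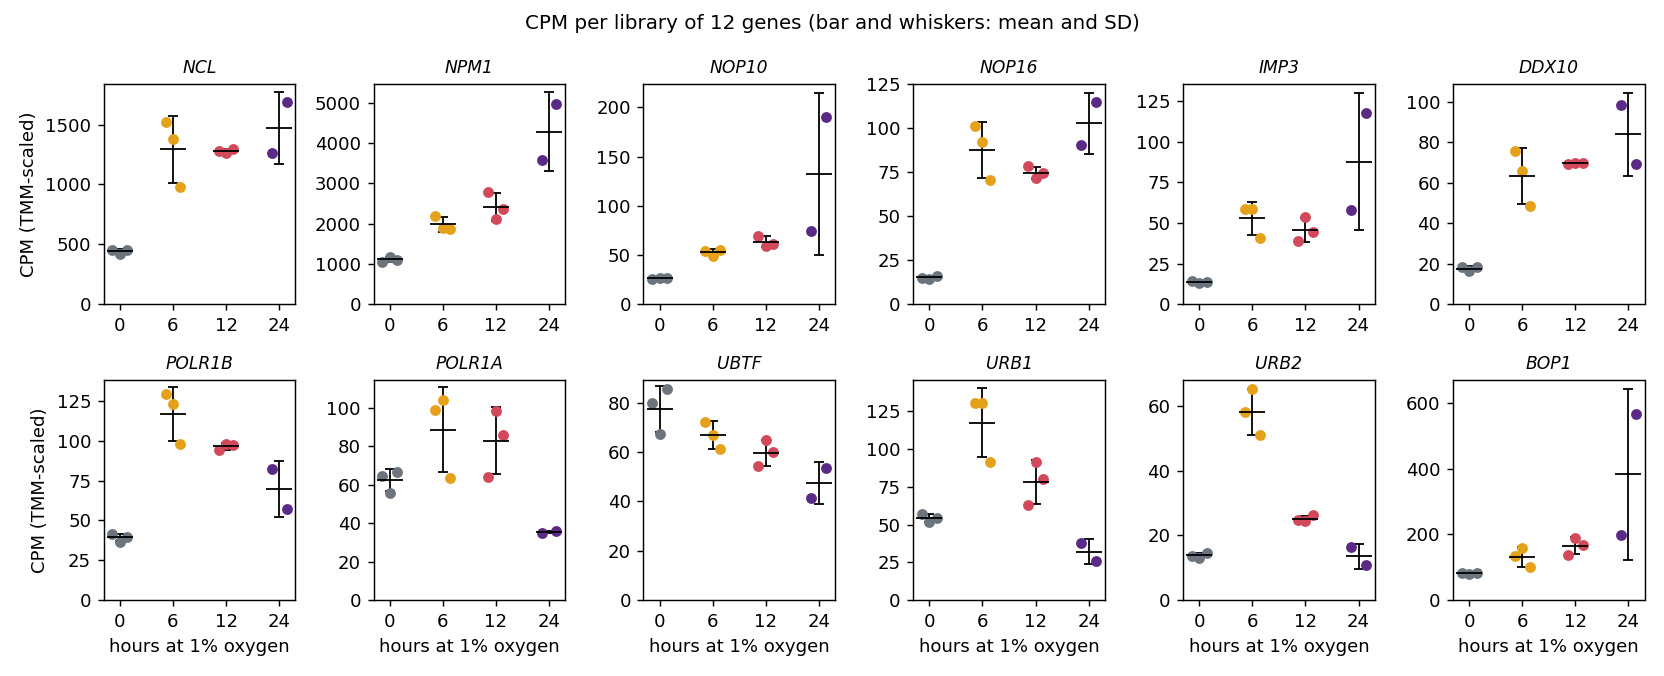
CPM of 12 of the genes in each of the 11 libraries by hours at 1% oxygen, with the group mean as a bar and the SD as whiskers. NOP16, DDX10 and IMP3 lie above their normoxic libraries at each time, URB2 is highest at 6 h at 51.0 to 65.3 CPM, and the 24 h replicates of NOP10 and BOP1 lie far apart.

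All 11 snoRNP and scaffold genes were called higher at 6, 12 and 24 h, with median log2 fold changes of 1.00, 1.05 and 1.22. Of all tested genes 14.8% were called higher at all 3 times. Each of the 11 had all 8 hypoxic libraries above all 3 normoxic libraries, as 20.5% of all tested genes did. With library size alone the 24 h calls of NOP56 (0.23), NOP58 (0.32), DKC1 (0.15) and NOLC1 (0.13) were lost. GAR1 (-0.14) and DDX21 (-0.20) then turned negative, and the other genes of the group kept their 24 h calls. NCL (nucleolin, ENSG00000115053, chr2:231453531-231483641 on the minus strand of GRCh38), which binds nascent precursor RNA, was at 450.9, 416.1 and 456.3 CPM at 0 h. It was at 1519, 1383 and 975.3 CPM at 6 h, 1281, 1262 and 1295 CPM at 12 h, and 1262 and 1686 CPM at 24 h. The rise was in place by 6 h at a log2 fold change of 1.55 ± 0.19 (SE), followed by 1.54 ± 0.19 at 12 h and 1.74 ± 0.21 at 24 h, with edgeR adjusted p of at most 5.86e-05. NPM1 (nucleophosmin, chr5:171387116-171411810), a nucleolar chaperone, was at 1058, 1177 and 1099 CPM at 0 h. It was at 2184, 1897 and 1858 CPM at 6 h, 2785, 2105 and 2357 CPM at 12 h, and 3582 and 4970 CPM at 24 h. Both 24 h libraries lay above every other library, and the log2 fold changes were 0.83, 1.12 and 1.94. NPM1 has 49 named pseudogenes, which hold 209127 counts beside 787550 for the gene, so the split of its reads is uncertain.

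The core of the box C/D snoRNP is formed by NOP56, NOP58 and the methyltransferase FBL. FBL (fibrillarin, chr19:39834458-39846379) was at 91.0, 89.3 and 94.8 CPM at 0 h and at 172.1, 209.9 and 161.2 CPM at 6 h. It was at 208.1, 213.0 and 205.3 CPM at 12 h and at 286.6 and 465.8 CPM at 24 h. Only the 6 h and 12 h libraries overlapped, and the log2 fold changes were 0.98 ± 0.18 (SE), 1.19 ± 0.18 and 2.04 ± 0.19. NOP58 gave 0.81, 0.75 and 1.22 and NOP56 gave 0.65, 0.45 and 1.17. The 12 h call of NOP56 (edgeR adjusted p = 0.0433) did not hold on leaving out any single 0 h or 12 h library, and with library size alone its value was -0.02.

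Box H/ACA snoRNPs hold the pseudouridine synthase DKC1 with GAR1, NHP2 and NOP10. NOP10 was at 25.5, 26.8 and 26.8 CPM at 0 h and at 53.6, 49.0 and 55.3 CPM at 6 h. It was at 69.8, 59.5 and 61.5 CPM at 12 h and at 73.9 and 190.5 CPM at 24 h. Both 24 h libraries were above all others but were far apart, and the log2 fold change of 2.32 ± 0.28 (SE) at 24 h was 1.47 without replicate 2 and 2.80 without replicate 1. NHP2 gave 0.61, 0.93 and 1.63, DKC1 gave 1.35, 1.05 and 1.09, and GAR1 gave 1.06, 0.48 and 0.84. The 24 h value of GAR1 was -0.14 with library size alone, and its 12 h call needed all of the 0 h and 12 h libraries. Its 24 h call was also lost with the length offset (0.31) and with sample quality weights (0.75). The 6 h call of NHP2 (edgeR adjusted p = 0.0219) was lost without 0 h replicate 1 or 2 or 6 h replicate 2.

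The scaffold NOLC1, which escorts snoRNPs, and the helicase DDX21 had their highest mean at 6 h. NOLC1 was at 231.2, 174.5 and 224.7 CPM at 0 h and at 686.3, 654.5 and 502.4 CPM at 6 h. It was at 474.8, 549.2 and 562.0 CPM at 12 h and at 486.6 and 349.0 CPM at 24 h. The log2 fold changes were 1.55, 1.33 and 0.99, and the step from 12 h to 24 h of -0.34 was not called (edgeR adjusted p = 0.238). DDX21 gave 1.12, 0.98 and 0.63, and its 24 h call was lost without any 1 normoxic library. Its 24 h value was 0.13 without 24 h replicate 1 and -0.20 with library size alone.

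Among the 19 small-subunit genes 14 were called higher at 6 h, 15 at 12 h and 16 at 24 h, and 1 was called lower, at 24 h. Of all tested genes 25.1%, 24.2% and 29.9% were called higher at these times, and 31.3% lower at 24 h. The median log2 fold changes of the 19 genes were 0.95, 0.87 and 1.27. IMP3, which joins the U3 snoRNA to the precursor, had the highest average in the group. IMP3 was at 14.4, 13.0 and 13.4 CPM at 0 h and at 58.8, 58.9 and 40.9 CPM at 6 h. It was at 38.7, 53.6 and 44.8 CPM at 12 h and at 57.9 and 117.6 CPM at 24 h. The lowest hypoxic library was far above the highest normoxic one, and the log2 fold changes were 1.95 ± 0.24 (SE), 1.74 ± 0.24 and 2.68 ± 0.26, with edgeR adjusted p of 3.79e-05, 0.000111 and 5.54e-06. The 24 h value of IMP3 was 2.06 without replicate 2 and 3.05 without replicate 1. Of the exonic bases of IMP3, 58.1% overlap genes on the other strand, and the strand setting of the counting is not stated.

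DDX10, a helicase of small-subunit rRNA processing, was at 18.4, 16.2 and 18.2 CPM at 0 h. It was at 75.8, 65.7 and 48.8 CPM at 6 h, 69.2, 69.6 and 70.1 CPM at 12 h, and 98.6 and 69.4 CPM at 24 h. The groups at 0 h and in hypoxia did not overlap, and the log2 fold changes were 1.85 ± 0.18 (SE), 1.98 ± 0.18 and 2.26 ± 0.19. RRP9, a protein of the U3 snoRNP, gave 1.20, 1.32 and 2.35, with 30.6 and 72.5 CPM in the 24 h libraries against 9.33 to 10.6 CPM at 0 h. Its 24 h value was 1.58 without replicate 2 and 2.78 without replicate 1. WDR43, which couples Pol I transcription to processing, gave 1.73, 1.38 and 1.50.

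The 3 lowest averages in the group belonged to PWP2, NOB1 and WDR75. PWP2, of the UTP-B complex, was at 27.2, 26.6 and 26.7 CPM at 0 h and at 26.9, 24.7 and 22.2 CPM at 6 h. It was at 19.0, 24.7 and 21.8 CPM at 12 h and at 16.2 and 22.6 CPM at 24 h. The 12 h and 24 h libraries lay below all 0 h libraries, and the log2 fold changes were -0.13, -0.30 and -0.47 ± 0.18 (SE), of which the last was called by edgeR (adjusted p = 0.0349). That call was lost without any 1 of the normoxic libraries or 12 h replicate 3, and with the length offset (-0.22). Without 24 h replicate 1 the 24 h value of PWP2 was -0.31. NOB1, the endonuclease that makes the mature end of small-subunit rRNA in the cytoplasm, was at 38.3, 38.4 and 40.8 CPM at 0 h and at 34.8, 34.2 and 34.3 CPM at 6 h. It was at 46.3, 45.6 and 42.2 CPM at 12 h and at 62.3 and 56.5 CPM at 24 h. All its 6 h libraries were below and all its 12 h and 24 h libraries above the 0 h range, and its log2 fold changes were -0.19, 0.19 and 0.60 ± 0.13 (SE), with a call at 24 h (edgeR adjusted p = 0.00126) that turned to -0.30 with library size alone. WDR75, which acts with WDR43, gave 0.05, 0.21 and 0.51, and its call at 24 h was lost without any 1 normoxic library. Its 24 h value was 0.24 without 24 h replicate 1 and -0.37 with library size alone.

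UTP20, a large scaffold protein of the small-subunit processome, was called at the same times as RRN3. It was at 20.5, 20.2 and 22.5 CPM at 0 h and at 47.3, 40.9 and 34.5 CPM at 6 h. It was at 37.7, 38.1 and 39.8 CPM at 12 h and at 27.1 and 15.6 CPM at 24 h. The 24 h libraries lay on either side of the 0 h range, the log2 fold changes were 0.96, 0.87 and 0.02, and the 24 h value was 0.34 without replicate 2 and -0.48 without replicate 1. With the length offset UTP20 was called higher at 24 h, at 0.65 (adjusted p = 0.00167). HEATR1, a partner of WDR43 named after its values were seen, differed most between the 24 h replicates of this group, at 70.4 CPM in replicate 1 and 21.7 CPM in replicate 2 against 47.7 to 49.98 CPM at 0 h. Its 24 h value of -0.08 (edgeR adjusted p = 0.852) was 0.51 without replicate 2 and -1.22 without replicate 1. Each of the last values rests on a single 24 h library.

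Among the 21 large-subunit genes 18 were called higher at 6 h, 20 at 12 h and 15 at 24 h, and 1 was called lower, at 24 h. The shares of all tested genes called higher were 25.1%, 24.2% and 29.9%, and 31.3% were lower at 24 h. The median log2 fold changes of the 21 genes were 1.15, 0.92 and 0.96. NOP16 (chr5:176383946-176388927, minus strand), a large-subunit assembly protein, had the highest average of the 56 genes. It was at 15.1, 14.5 and 16.0 CPM at 0 h and at 101.0, 91.8 and 70.1 CPM at 6 h. It was at 78.3, 71.5 and 74.2 CPM at 12 h and at 90.2 and 114.7 CPM at 24 h. All hypoxic libraries, at 70.1 CPM or more, lay above the normoxic ones, at 16.0 CPM or less, and the log2 fold changes were 2.53 ± 0.16 (SE), 2.30 ± 0.16 and 2.75 ± 0.17, with edgeR adjusted p of 5.17e-07, 1.29e-06 and 4.62e-07. GNL2, a GTPase needed for export of the large subunit, gave 1.57, 1.71 and 1.86. MRTO4, which holds the place of the stalk protein on the pre-ribosome, gave 1.56, 1.40 and 1.68, and EBNA1BP2, an early large-subunit factor, gave 1.21, 1.19 and 1.98.

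BOP1 and WDR12, which form a complex with PES1 in large-subunit rRNA processing, differed in time course. BOP1 was at 81.4, 80.8 and 83.0 CPM at 0 h and at 135.4, 159.8 and 101.0 CPM at 6 h. It was at 137.8, 189.9 and 168.2 CPM at 12 h and at 198.4 and 566.3 CPM at 24 h. All hypoxic libraries lay above the 0 h range, and the log2 fold changes were 0.69 (edgeR adjusted p = 0.067), 1.02 (0.0131) and 2.23 (0.000101). Its 12 h call was lost without 12 h replicate 2, and the 24 h value was 1.26 without 24 h replicate 2 and 2.74 without replicate 1. WDR12 was at 27.2 to 30.2 CPM at 0 h, at 39.8, 36.3 and 34.97 CPM at 6 h, and at 27.7 and 30.9 CPM at 24 h. It gave 0.36, 0.12 and 0.02, with a 6 h call that was lost without 6 h replicate 1 or any 1 normoxic library, and -0.91 at 24 h with library size alone. With the length offset WDR12 was called higher at 24 h, at 0.71 (edgeR adjusted p = 0.00266).

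URB1 and URB2, scaffold proteins of early large-subunit particles, were called higher at 6 h and 12 h but not at 24 h. URB2 (chr1:229626247-229660200, plus strand) was at 13.6, 13.2 and 14.6 CPM at 0 h and at 58.0, 65.3 and 51.0 CPM at 6 h. It was at 24.8, 24.5 and 26.3 CPM at 12 h and at 16.3 and 10.7 CPM at 24 h. The 0 h, 6 h and 12 h libraries did not overlap and the 24 h libraries lay on either side of the 0 h range. The log2 fold changes were 2.07 ± 0.16 (SE, edgeR adjusted p = 1.84e-06), 0.87 ± 0.16 (0.000827) and -0.03 ± 0.18 (0.908), and the length offset gave 0.49 at 24 h. URB1 was at 56.7, 51.6 and 54.3 CPM at 0 h and at 130.4, 130.2 and 91.3 CPM at 6 h. It was at 62.7, 91.6 and 80.1 CPM at 12 h and at 38.1 and 26.2 CPM at 24 h. Its 6 h and 12 h libraries lay above and its 24 h libraries below the 0 h range, and the log2 fold changes were 1.11, 0.53 and -0.75 ± 0.22 (SE, edgeR adjusted p = 0.00995). The 24 h value was -0.53 without 24 h replicate 2, which leaves a single 24 h library, and -0.07 with the length offset. The 12 h call was lost without any 1 normoxic library or 12 h replicate 2 or 3.

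The GTPase GNL3L and the helicase DDX56 also parted after 12 h. GNL3L was at 24.0 to 26.4 CPM at 0 h, 30.7 to 41.4 CPM at 6 h, 33.6 to 41.7 CPM at 12 h, and 23.8 and 25.2 CPM at 24 h. It gave 0.46, 0.62 and -0.03, with a 6 h call lost without 0 h replicate 2 or 3 or 6 h replicate 2, and 0.66 at 24 h with the length offset. DDX56 was at 42.9 to 46.7 CPM at 0 h, 49.4 to 64.0 CPM at 6 h, 61.2 to 65.9 CPM at 12 h, and 92.3 and 138.7 CPM at 24 h. It gave 0.36, 0.50 and 1.36, with a 12 h call lost without 0 h replicate 1 or 2 or 12 h replicate 2 or 3. Levels of NOP2 were 0.970 to 1.15 CPM at 0 h, and 54.4% of its exonic bases are shared with another gene on the same strand, so its values are uncertain. The same holds for PPAN, which shares 49.2% of its exonic bases in that way.

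Between 6 h and 12 h of hypoxia the genes differed little. None was called higher and 1, URB2, was called lower, at -1.20 ± 0.16 (SE) with an edgeR adjusted p of 0.00395. Over all tested genes 1.88% were called higher and 3.07% lower, and DESeq2 called 1 of the 56 genes higher and 5 lower. With either 24 h library left out of the shared fit, 2 genes were called higher and 6 lower, and leaving out 6 h replicate 3 gave 2 lower. Between 12 h and 24 h 13 genes were called higher and 6 lower, beside 15.1% and 13.3% of all tested genes. The higher genes included 6 of the 11 snoRNP and scaffold genes, among them NOP10 (1.06), FBL (0.85) and NPM1 (0.82), with BOP1 at 1.21, RRP9 at 1.02, IMP3 at 0.94 and DDX56 at 0.86. The lower genes were URB1 (-1.28), POLR1A (-1.22), URB2 (-0.89), UTP20 (-0.85), RRN3 (-0.70) and GNL3L (-0.65). With library size alone these counts were 0 higher and 13 lower, beside 848 and 4610 of all 19981 tested genes. Leaving out 24 h replicate 2 leaves a single library at 24 h, so only log2 fold changes are given. NPM1 was then at 0.56, NOP58 at 0.53, NOB1 at 0.47, DDX56 at 0.53 and NOC3L at 0.68. NOP10 fell to 0.20, FBL to 0.44, BOP1 to 0.25, RRP9 to 0.26 and IMP3 to 0.33. The lower genes were then at -1.05 (URB1), -1.25 (POLR1A), -0.64 (URB2), -0.52 (UTP20), -0.57 (RRN3) and -0.705 (GNL3L). A fit of only these 2 groups called 0 of its 17807 genes, and so 0 members, with 5671 genes at an unadjusted p under 0.05. Sample quality weights gave 0 members higher and 1 lower, beside 684 and 409 of 19981 genes. DESeq2 called 17 members higher and 9 lower, beside 3714 and 2880 of 19981 genes. The members called higher were 8 without 12 h replicate 2 and 4 without 12 h replicate 3, beside 1489 of 19903 and 1585 of 19927 genes.

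The difference between 12 h and 24 h varied with transcript length. Over the 56 genes the log2 fold change had a Pearson r of -0.759 with log2 length of the longest transcript, and over 19884 tested genes with a length it was -0.281. The genes share the libraries of the comparison, so these values are a description. The 17 genes under 2 kb had a median of 0.57 (all tested genes 0.44), the 28 of 2 to 5 kb 0.19 (-0.04), and the 11 over 5 kb -0.65 (-0.45). The same trend separated the 24 h replicates, where the log2 ratio of replicate 2 over replicate 1 had an r of -0.552 over the 56 genes and -0.308 over 19007 genes. At 6 h and 12 h against 0 h the members' r was -0.115 and -0.239. At 24 h against 0 h it was -0.647 (all tested genes -0.211), with medians of 1.47, 1.18 and 0.02 from the shortest to the longest class (0.57, -0.15 and -0.59). With the length offset 13 genes were called higher and 3 lower from 12 h to 24 h, and at 24 h against 0 h 47 were higher and 0 lower. The 13 were not the same genes as before. From 12 h to 24 h NOP10 (0.61), NHP2 (0.22), NOP58 (0.32) and NOB1 (0.21) lost their calls, and UTP4, TBL3, DDX10 and WDR12 gained one. Of the lower genes POLR1A (-0.50), UTP20 (-0.31) and GNL3L (-0.05) lost theirs. What part transcript length has in the 24 h results was not tested further.

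**Figure D4:**
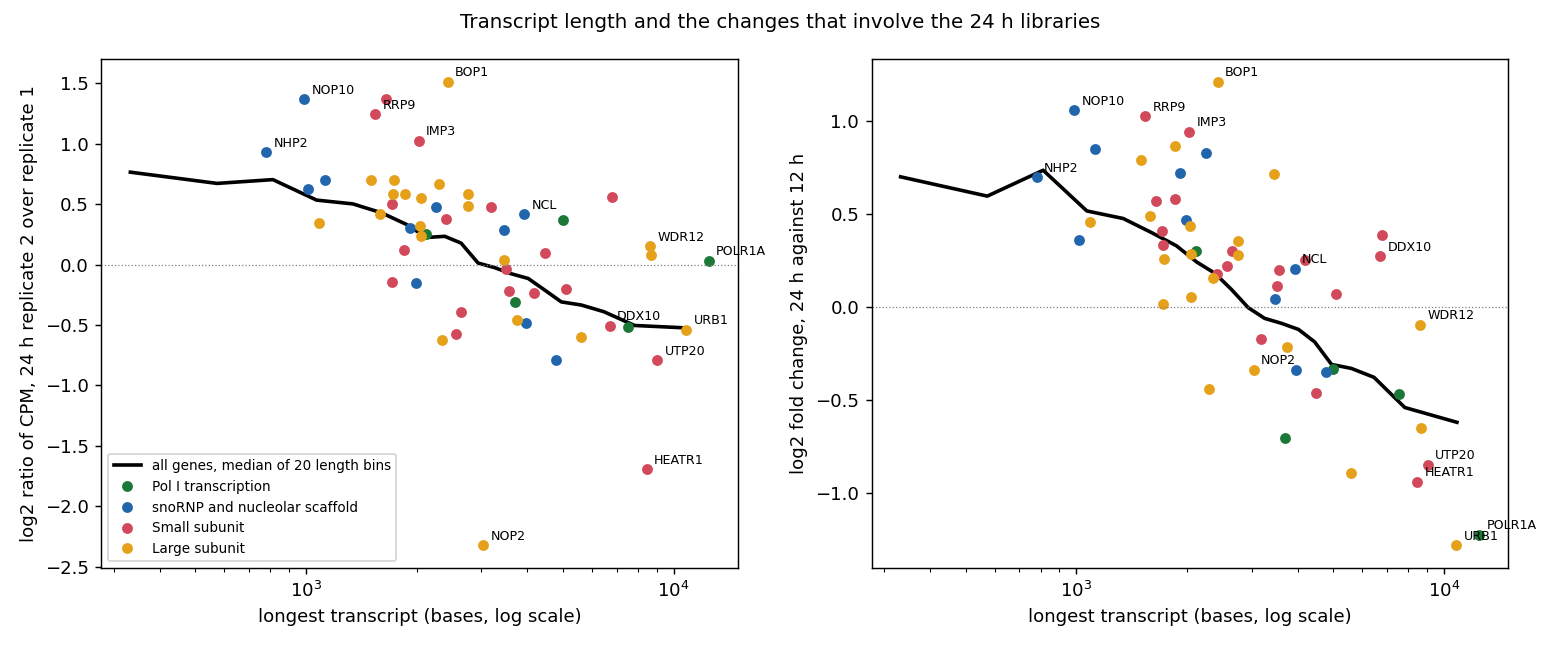
Longest transcript in bases (log scale) against the log2 ratio of CPM of the 24 h replicates (left) and against the log2 fold change of 24 h against 12 h (right), with 1 point per ribosome biogenesis gene and a line for the median of all genes in 20 length bins. The points fall from left to right, and URB1, POLR1A, HEATR1 and UTP20 lie at the long and low end of the right panel.

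Per kilobase of exonic length, which counts each exonic base of a gene once, the highest mean levels at 0 h were those of NPM1 at 133.7 ± 7.28 CPM per kb (SD, n = 3), NOLC1 at 52.9 ± 7.81, NCL at 49.5 ± 2.45 and FBL at 42.9 ± 1.33. NOLC1 and NCL did not differ beyond their spread, whereas NPM1 lay above both. The lowest levels, apart from the uncertain NOP2, were those of DDX10 at 0.975 ± 0.0671, GNL3L at 2.10 ± 0.105 and UTP20 at 2.10 ± 0.123, of which the last pair did not differ beyond their spread. At 24 h the first 4 in order were NPM1 at 514.5 ± 118 CPM per kb (SD, n = 2), FBL at 176.0 ± 59.3, NCL at 165.3 ± 33.6 and NOLC1 at 105.2 ± 24.5, and the spreads of FBL and NCL overlapped. The order depends on the length used. Per kb of the longest transcript the highest means at 0 h were NPM1 at 492.2 CPM per kb, NCL at 112.4, FBL at 81.5, DDX21 at 61.3, NOP56 at 57.6 and NOLC1 at 53.0. The lowest apart from NOP2 were then UTP20 at 2.33, URB2 at 2.46, DDX10 at 2.62 and GNL3L at 2.88. At 24 h that order was NPM1 at 1894, NCL at 375.6, FBL at 334.4, BOP1 at 157.5, NOP10 at 133.8, NOP56 at 129.8 and NOLC1 at 105.3.

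Other genes of the pathway, a list of 117 that excludes the 56, were also mostly called higher. Of these 69 were called higher and 6 lower at 6 h, 72 and 4 at 12 h, and 80 and 7 at 24 h, with median log2 fold changes of 0.60, 0.62 and 0.87. The shares of all tested genes were 25.1%, 24.2% and 29.9% higher, and 27.7%, 27.1% and 31.3% lower. Within the list, the 15 exosome and nuclease genes gave 3 higher and 3 lower at 6 h, 7 and 3 at 12 h, and 9 and 1 at 24 h. The 3 highest averages of the 117 were PNO1, a late small-subunit factor, at 2.14, 1.78 and 2.04, DHX37, a helicase of the small-subunit processome, at 2.09, 1.74 and 1.84, and POLR2F, a subunit shared by the nuclear polymerases, at 1.42, 1.47 and 2.26. The 3 lowest were the exosome subunits EXOSC6, at -1.47, -1.81 and -2.17, and EXOSC8, at -1.17, -0.88 and -0.23, and the Pol I factor TAF1C, at -0.49, -0.40 and -1.17. These were called lower at each time by edgeR apart from EXOSC8 at 24 h (adjusted p = 0.172).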

How the data were processed

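RNA longer than 200 nucleotides was DNase-treated, and 12 stranded libraries were built in 1 batch and sequenced for 75 cycles, single end. Trimmed reads (Trimmomatic 0.39) were aligned by the authors with STAR to GRCh38 (Ensembl 99) and tallied with featureCounts. The deposited counts are raw whole numbers per gene; the strand setting and the handling of multiply mapped reads are not given in the sources used here. The 11 columns were matched to samples by time and replicate.

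Here, filterByExpr (minimum count 10) kept 19981 genes. TMM scaling and 1 edgeR 4.0.16 quasi-likelihood fit of the 11 libraries, with time as the only factor, gave log2 fold changes, and p-values were Benjamini-Hochberg adjusted over all tested genes. The biological coefficient of variation was 19.6%. Per-library log2 CPM values were taken with no prior count. A prior count of 2 was used for the correlations between libraries and for the length offset. Lengths and symbols came from GENCODE 44. The test was checked on simulated counts. Members, gene lists and tests were chosen with earlier results of these data known. Named genes are all Pol I and snoRNP members, the 4 highest and 3 lowest averages of each subunit group, any member called lower or at no time, and up to 5 calls per direction between time points. Of the other pathway genes the 3 highest and 3 lowest averages are named. Alternatives were limma-voom (limma 3.58.1) without and with sample quality weights, DESeq2 1.42.0, median-of-ratios or library-size scaling, no filter or 10 counts in every library, only the groups compared, a replicate block, each library left out, and, chosen after seeing the data, a length offset. R was 4.3.3.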

Additional observations from a re-analysis of the deposited data

Results flagged for a closer look

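For 20 differences the effect of hypoxia against 0 h differed between time points, tested as the contrast between those time points in the edgeR fit over 11 libraries and called at a Benjamini-Hochberg adjusted p under 0.05. From 6 h to 12 h the log2 fold change of URB2 was -1.20. From 12 h to 24 h the higher genes of the snoRNP and scaffold group were NOP10 (1.06), FBL (0.85), NPM1 (0.82), NOP56 (0.72), NHP2 (0.70) and NOP58 (0.47). In the small-subunit group they were RRP9 (1.02), IMP3 (0.94) and NOB1 (0.41), and in the large-subunit group BOP1 (1.21), DDX56 (0.86), EBNA1BP2 (0.79) and NOC3L (0.71). The lower genes were URB1 (-1.28), POLR1A (-1.22), URB2 (-0.89), UTP20 (-0.85), RRN3 (-0.70) and GNL3L (-0.65). Leaving out 24 h replicate 2 leaves a single library at 24 h. The differences were then 0.20 for NOP10, 0.44 for FBL, 0.55 for NOP56 and 0.15 for NHP2. They were 0.26 for RRP9, 0.33 for IMP3, 0.25 for BOP1 and 0.39 for EBNA1BP2. NPM1 was at 0.56, NOP58 and DDX56 at 0.53, NOB1 at 0.47 and NOC3L at 0.68. The lower genes ran from -1.25 (POLR1A) to -0.52 (UTP20). A fit of only the 12 h and 24 h libraries called 0 of these genes, as it called 0 of all its 17807 genes. With the length offset the calls of NOP10 (0.61), NHP2 (0.22), NOP58 (0.32) and NOB1 (0.21) were lost from 12 h to 24 h. So were those of POLR1A (-0.50), UTP20 (-0.31) and GNL3L (-0.05).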

How the results depend on the processing

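The 3 comparisons with 0 h kept positive medians under every alternative run. With library size alone the medians were 0.71, 0.49 and 0.19 at 6, 12 and 24 h, and -0.22 for both 12 h against 6 h and 24 h against 12 h, where the last reversed. Library size alone called 3 genes lower at 6 h, 28 higher and 2 lower at 12 h, 23 higher and 10 lower at 24 h, 3 lower from 6 h to 12 h, and 0 higher and 13 lower from 12 h to 24 h. Without a filter the medians were 1.02 at 24 h and 0.16 for 24 h against 12 h, with 0 lower at 12 h and 2 lower from 6 h to 12 h. With 10 counts in every library they were 0.85 at 12 h and 0.98 at 24 h, with 2 lower at 12 h and 3 lower from 6 h to 12 h. Sample quality weights gave 2 lower at 12 h, 0 lower at 24 h, 2 higher and 9 lower from 6 h to 12 h, and 0 higher and 1 lower from 12 h to 24 h. DESeq2 gave 1 higher and 5 lower from 6 h to 12 h. Fits of only the groups compared gave 2 lower at 12 h, and 1 higher and 4 lower from 6 h to 12 h. From 12 h to 24 h such a fit called 0 of its 17807 genes, and so 0 members, with 5671 at an unadjusted p under 0.05. DESeq2 on all libraries called 17 members higher and 9 lower from 12 h to 24 h. The length offset gave 0 lower at 12 h and 24 h, 4 lower from 6 h to 12 h, 3 lower from 12 h to 24 h, and a median of 1.05 at 12 h. Per kb of the longest transcript the median level at 0 h was 11.9 CPM per kb, higher than per kb of exonic length. The longest transcript is never longer than the exonic length, so this direction follows from the length used. The cause of the other changes was not tested.

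Leaving out 1 library at a time gave, for higher and lower calls, 40 to 50 and 0 to 1 at 6 h, 38 to 50 and 0 to 2 at 12 h, 39 to 44 and 3 to 6 at 24 h, 0 to 2 and 1 to 6 from 6 h to 12 h, and 4 to 22 and 5 to 11 from 12 h to 24 h. The medians ran from 0.98 to 1.10, 0.89 to 0.98, 1.03 to 1.17, -0.17 to 0.02, and 0.056 to 0.28. With 1 of the 24 h libraries left out, a single library stands for 24 h, so counts of calls there rest on it. Deviations of same-numbered libraries from their group means had r from -0.156 to 0.207 over 15 pairs. Those of differently numbered libraries had r from -0.271 to 0.283 over 30 pairs. Deviations within a small group are tied to each other, so these values cannot decide whether replicate numbers pair the libraries. The replicate block gave 0 lower at 12 h in place of 1, and from 12 h to 24 h 11 higher and 7 lower, and it ended the calls of POLR1A at 6 h and of UBTF, NOP56 and URB1 at 12 h.

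Of 2142 values of named genes under the alternatives, 1977 kept their side of the threshold, of which 27 changed sign while called in neither fit, 120 lost a call, 34 gained one and 11 reversed. With library size alone the reversed values were NOP56 at 12 h (-0.016) and, at 24 h, POLR1B (-0.032), GAR1 (-0.14), DDX21 (-0.20), NOB1 (-0.30), WDR75 (-0.37), UTP20 (-0.81) and WDR12 (-0.91). UTP20 at 24 h was -0.48 without 24 h replicate 1 and 0.34 without replicate 2, and with the length offset GNL3L (0.66) and URB2 (0.49) reversed at 24 h. With 2 libraries at 24 h, a single library decides part of each value there.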

Other observations

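Of the 56 ribosome biogenesis genes 8 host small nucleolar RNA genes within their bounds and on their strand, namely NOP56, NOP58, DKC1, NCL, WDR43, GNL3, PPAN and URB1. That is 14.3% of the list, against 1.28% of 19892 protein-coding genes in the table. The 8 genes hold 26 annotated snoRNA genes, of which SNORD19C in GNL3 had the most counts, at 48 over all 11 libraries. The RNA preparation kept molecules over 200 nucleotides, so snoRNA levels were not measurable here.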
